A study of Mus musculus with 10 samples.

Results

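The Mediator complex genes measured in mouse germinal vesicle oocytes are described here: every probe set of the array whose single annotated symbol was Med followed by a number (with or without a final l), Cdk8 or Ccnc. The rule took 70 of the 45037 probe sets without controls and covered 32 genes. It reads symbols only and no measured value, although the topic was picked with earlier results of these data known. The germinal vesicle oocyte is the fully grown oocyte held in prophase of the first meiotic division. Total RNA of wild-type oocytes (5 arrays) and of oocytes depleted of CTCF (5 arrays), the zinc finger factor that occupies insulators and shapes chromosome loops, was hybridised to Affymetrix-type arrays. The sources used here do not give the mouse strain or age, the way CTCF was depleted, the oocytes pooled per array, or whether each array used its own animals. The p-values therefore rest on the spread among these arrays, part of which may be technical.

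Mediator is a large protein complex that sits between DNA-bound transcription factors and RNA polymerase II. Its head and middle contact the polymerase, its tail receives signals from activators, Med14 forms a backbone that joins these parts, and a separable kinase module of Cdk8, cyclin C, Med12 and Med13 (or the paralogues Med12l and Med13l) binds reversibly and modulates the complex. It has been studied together with cohesin at loops between enhancers and promoters. The fully grown oocyte falls silent in transcription and lives on transcripts stored during its growth phase.

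Between 49.4% and 62.9% of the probe sets of an array lay above the highest of its 27 Bacillus control probe sets, bacterial sequences with no mouse counterpart that served as the background level. The number of arrays limits the precision. Ctcf itself read 1069, 898, 949, 1071 and 1020 on wild-type arrays 1 to 5 and 29.3, 17.2, 22.3, 16.7 and 95.8 on depleted arrays 1 to 5 with one probe set (1449042_at). The other (1418330_at) read 877, 724, 805, 722 and 700 against 14.2, 7.07, 11.4, 9.94 and 61.1. The groups lay far apart on both, and depleted replicate 5 kept the highest depleted signal. All 11 oocyte markers examined were above the control level on every array. Of 12 markers of granulosa and cumulus cells 11 were on the array, 7 of them above the control level on all arrays and 1 on none. Their summed signal ran from 420 to 1018 in wild-type and from 375 to 562 in depleted oocytes. In limma (adjusted p under 0.05) 2 of the 10 tested were higher in depleted oocytes and 0 lower, against 7.26% higher and 9.12% lower over all genes tested, and their median log2 fold change, depleted over wild type, was -0.13, with the lowest at -0.96 for Has2. Those higher were Fshr from 23.2 ± 6.69 to 47.8 ± 5.75 and Ptgs2 from 4.11 ± 1.57 to 15.0 ± 3.81. The wild-type mean of Ptgs2 lay under the control level, which averaged 8.06 on wild-type arrays. Of 9 markers of blood, immune and endothelial cells 7 were on the array, 2 of them above the control level on all arrays, and their summed signal ran from 92.2 to 102 against 92.1 to 125. In such whole-oocyte samples fewer cells of a type and less RNA per cell cannot be told apart. What part the markers have in the results below was not tested.

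On their brightest probe sets most Mediator genes differed little between the groups, and so did most genes whose mean signal reached 100. Each of the 32 genes had a brightest probe set above the control level on all 10 arrays, and the wild-type mean of that probe set ran from 63.4 to 6018 with a median of 587. The share of all genes above that level on every array is not given here. The count of 32 is therefore not read as particular to Mediator. Signals of different probe sets do not order the transcripts by level. With that probe set standing for the gene, 1 gene rose in depleted oocytes, Med19, and 2 fell, Med14 and Med20, which is 9.38% of the 32 genes (limma, Benjamini-Hochberg adjusted p under 0.05 over all tested probe sets). Among all 13811 genes tested the same rule called 16.4%, with 7.26% higher and 9.12% lower. The fall of Med14 rests on the choice of probe set, because its other probe sets gave positive values. When its probe sets were averaged Med14 was called higher at 0.30 on the log2 scale, close to the threshold (limma adjusted p = 0.0467). That average includes a probe set near the control level (1437632_at), whose own value fell from 0.33 to 0.014 without depleted replicate 1. The median log2 fold change, depleted over wild type, was 0.018 over the Mediator genes and -0.017 over all genes.

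On the brightest probe sets, sizes of change within the complex were small. The median absolute log2 fold change was 0.066 over the 32 Mediator genes, against 0.16 over all genes and 0.11 over those whose mean signal reached 100, a level that 31 of the 32 Mediator genes reached. The 95% interval of the fold change lay within 1.5-fold in either direction for 31 of the 32 genes, or 96.9%. Over all genes this share was 63.4%, and over those whose mean signal reached 100 it was 92.2%. Neither set was matched to the Mediator genes in signal, and dim signals vary strongly on these arrays. The smaller changes are therefore not read as particular to Mediator. Med13 was the single exception, with an interval from -0.66 to -0.055 on the log2 scale. Dimmer probe sets are not in this count. Among them 1457167_at of Med14 rose 1.63-fold, with a 95% interval from 1.41-fold to 1.88-fold. The mean log2 signal over the 32 genes was 9.24 ± 0.024 (SD, n = 5) on wild-type arrays and 9.23 ± 0.039 on depleted arrays. These array means ran from 9.21 to 9.27 and from 9.19 to 9.29, so the groups overlapped.

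**Figure D1:**
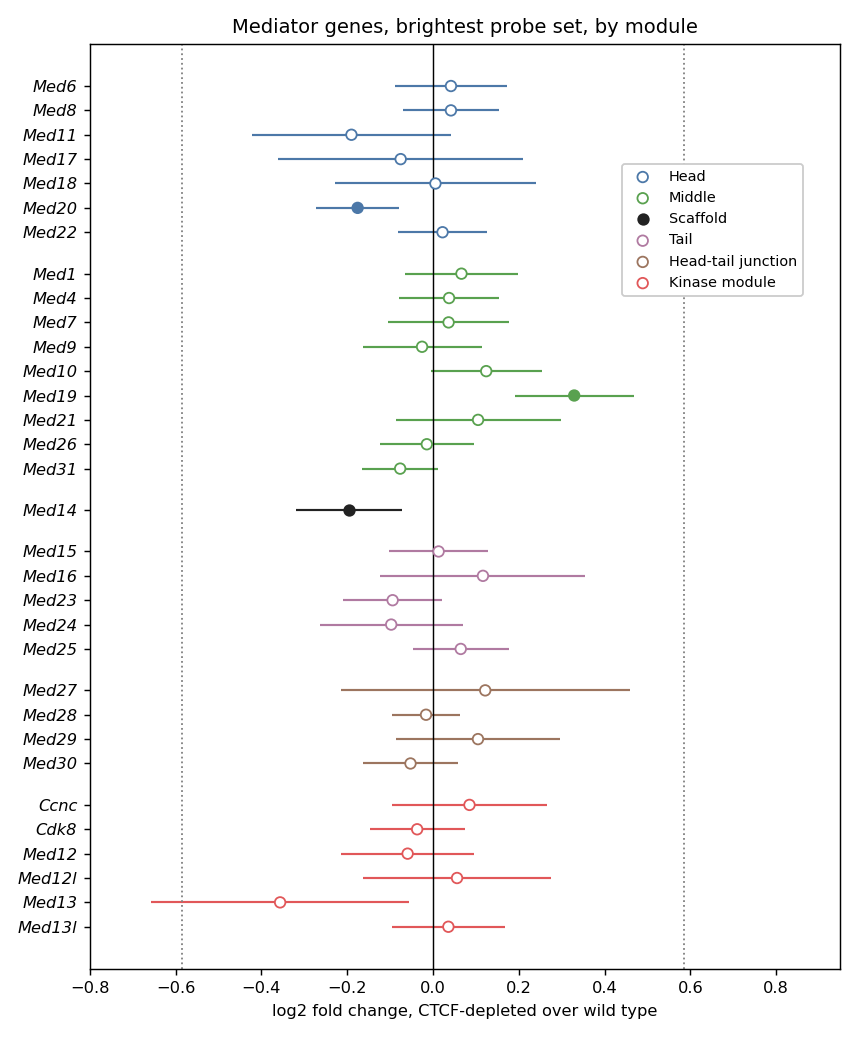
Log2 fold change of each Mediator gene on its brightest probe set, CTCF-depleted over wild type, with its 95% interval from limma. Colours mark the modules, filled points the 3 genes with an adjusted p under 0.05 (Med19, Med20 and Med14) and dotted lines a 1.5-fold change. All intervals but that of Med13 stay between the dotted lines.

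The start regions of the 3 called genes are printed with matches to the motif of CTCF marked, since CTCF is the protein depleted in this comparison. They are RefSeq windows of GRCm38.p6 from 250 bases before to 50 bases after the annotated start, written 5′ to 3′ on the gene's strand, and the array files themselves name no genome build. Capitals mark matches to AGNNGGC, a short core of the CTCF motif.
Med14 (chrX:12761924-12762223, minus strand): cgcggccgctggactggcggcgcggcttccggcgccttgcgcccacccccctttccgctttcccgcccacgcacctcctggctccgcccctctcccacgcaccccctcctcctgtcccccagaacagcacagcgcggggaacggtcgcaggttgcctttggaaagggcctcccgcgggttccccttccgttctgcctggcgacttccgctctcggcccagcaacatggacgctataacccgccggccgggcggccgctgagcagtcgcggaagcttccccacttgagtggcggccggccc
Med19 (chr2:84678152-84678451, plus strand): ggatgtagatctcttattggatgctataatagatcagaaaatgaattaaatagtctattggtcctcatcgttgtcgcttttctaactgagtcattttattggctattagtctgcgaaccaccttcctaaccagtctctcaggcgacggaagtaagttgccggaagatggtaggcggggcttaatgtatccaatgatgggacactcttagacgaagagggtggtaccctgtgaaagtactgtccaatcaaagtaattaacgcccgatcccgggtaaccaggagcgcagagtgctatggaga
Med20 (chr17:47611335-47611634, plus strand): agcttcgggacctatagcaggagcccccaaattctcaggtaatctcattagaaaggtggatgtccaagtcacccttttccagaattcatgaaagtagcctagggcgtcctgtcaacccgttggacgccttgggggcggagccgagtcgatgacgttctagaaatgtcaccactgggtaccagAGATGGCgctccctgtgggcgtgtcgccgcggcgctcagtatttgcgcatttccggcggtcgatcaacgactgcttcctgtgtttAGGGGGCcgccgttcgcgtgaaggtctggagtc
Both strands were searched. A longer form of the motif, in which CCA and 2 bases of any kind stand directly before the core, contains the core by construction. It occurred in 2.43% of all 32851 windows and in 0 of the 32 windows found for Mediator genes, including the 3 printed. The core alone occurred in 59.8% of all windows and in 23 of the 32 Mediator windows (71.9%). Med20 held 2 core matches, 1 before and 1 after the start, and Med14 and Med19 held 0. Of the 32 genes 28 had at least 1 window, and Med8, Med23, Med24 and Med30 had none. The Med14 window held 34 CpG dinucleotides, that of Med20 23 and that of Med19 12, against medians of 20 over the Mediator windows and 7 over all windows. A match is a description of the letters, not of a bound site, and no match says only that these letters are not in this window.

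The head module, which contacts RNA polymerase II, held 7 genes, of which 0 were called higher and 1 lower, with a median log2 fold change of 0.0057. Med20, which pairs with Med18 in the movable part of the head, was the called gene. Its brighter probe set (1416826_a_at) read 2474, 2495, 2616, 2526 and 2665 on wild-type arrays 1 to 5 and 2206, 2231, 2444, 2320 and 2118 on depleted arrays 1 to 5. All depleted arrays lay under all wild-type arrays, although depleted replicate 3 came close to the lowest of them. The fall was 1.13-fold, or -0.18 ± 0.046 on the log2 scale (SE), with a limma adjusted p of 0.0168 and a two-sided exact permutation p of 0.00794, the smallest that 5 against 5 arrays allow.

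Med20's dimmer probe set (1448478_at) read 633 ± 32.0 (SD, n = 5) in wild-type and 577 ± 37.3 in depleted oocytes, with overlapping groups. Its log2 fold change was -0.13 ± 0.061 (SE), the same direction as the brighter one, but it did not pass (limma adjusted p = 0.174). The call on the brighter probe set was kept with any single array left out, in some cases only just (limma adjusted p from 0.00759 to 0.0488). It was lost with arrays centred on their medians, at a log2 fold change of -0.12 (adjusted p = 0.151). It was also lost with a covariate (adjusted p = 0.0680), the 3-prime over 5-prime ratio of control transcripts, a measure of RNA quality whose log2 value was 2.95 ± 0.13 (SD, n = 5) in wild-type and 2.82 ± 0.15 in depleted oocytes. Its part in the result was not tested beyond that fit, in which the dimmer probe set passed (-0.20, adjusted p = 0.0331).

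The other head genes did not pass. Med11, whose log2 fold change was -0.19, was called lower with the 3-prime over 5-prime covariate (-0.35, adjusted p = 0.0206). It was also called lower without depleted replicate 2 alone (-0.30, adjusted p = 0.0344) and without depleted replicates 2 and 5 together (-0.34, adjusted p = 0.0261). Depleted replicate 2 read 294, against 185 to 223 on the other depleted arrays. That array also had the lowest log2 3-prime over 5-prime ratio of all arrays, 2.60. The Med11 calls with the covariate and without that array are therefore not separate support. The others had log2 fold changes of -0.075 for Med17, 0.0057 for Med18, 0.022 for Med22, 0.042 for Med6 and 0.042 for Med8. Med17, a central subunit of the head, varied far more between arrays of a group than between the groups. Its brightest probe set read 1966, 2937, 2936, 2889 and 2036 on wild-type arrays 1 to 5 and 3010, 2022, 2008, 2923 and 2147 on depleted arrays 1 to 5. No array lay between 2147 and 2889: wild-type replicates 1 and 5 and depleted replicates 2, 3 and 5 were below that gap and the other 5 arrays above it. The residual SD within groups was 0.30 on the log2 scale, and only 10 of the 2807 probe sets whose mean signal reached 1000 (0.356%) had a larger one, with a median of 0.080 over those probe sets. The 95% interval of the Med17 fold change ran from -0.36 to 0.21 on the log2 scale.

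The middle module, which also contacts the polymerase and takes part in signalling from the tail to the head, held 9 genes. Of these 1 was called higher and 0 lower, and the median log2 fold change was 0.038. The called gene was Med19, a subunit at the hook where middle and head meet. Its brighter probe set (1452395_at) read 208, 225, 221, 218 and 214 on wild-type arrays 1 to 5 and 278, 273, 250, 286 and 282 on depleted arrays 1 to 5. Every depleted array lay above every wild-type array, and depleted replicate 3 was the lowest of its group. Med19 rose 1.26-fold, or 0.33 ± 0.066 on the log2 scale (SE), with a 95% interval from 0.19 to 0.47, a limma adjusted p of 0.00274 and an exact permutation p of 0.00794.

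Med19 kept its call in all 23 alternative fits run for that probe set, single arrays left out included, with log2 fold changes from 0.31 to 0.38. Its dimmer probe set (1427332_at) read 160 ± 23.0 (SD, n = 5) in wild-type and 184 ± 20.3 in depleted oocytes, overlapping, with a log2 fold change of 0.21 ± 0.10 (SE) that did not pass (limma adjusted p = 0.213). The remaining middle genes did not pass. Med10 had the largest positive value among them, 0.12 on the log2 scale, and Med31 the most negative, -0.076. Med1, the subunit through which many nuclear receptors reach Mediator, had 5 tested probe sets. Its brightest read 504 ± 15.7 and 529 ± 41.1, a log2 fold change of 0.066, and the other 4 gave values from -0.48 to 0.075. Med26, which helps to bring elongation factors to the polymerase, had -0.014, and Med4, Med7, Med9 and Med21 had 0.038, 0.036, -0.025 and 0.11.

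**Figure D2:**
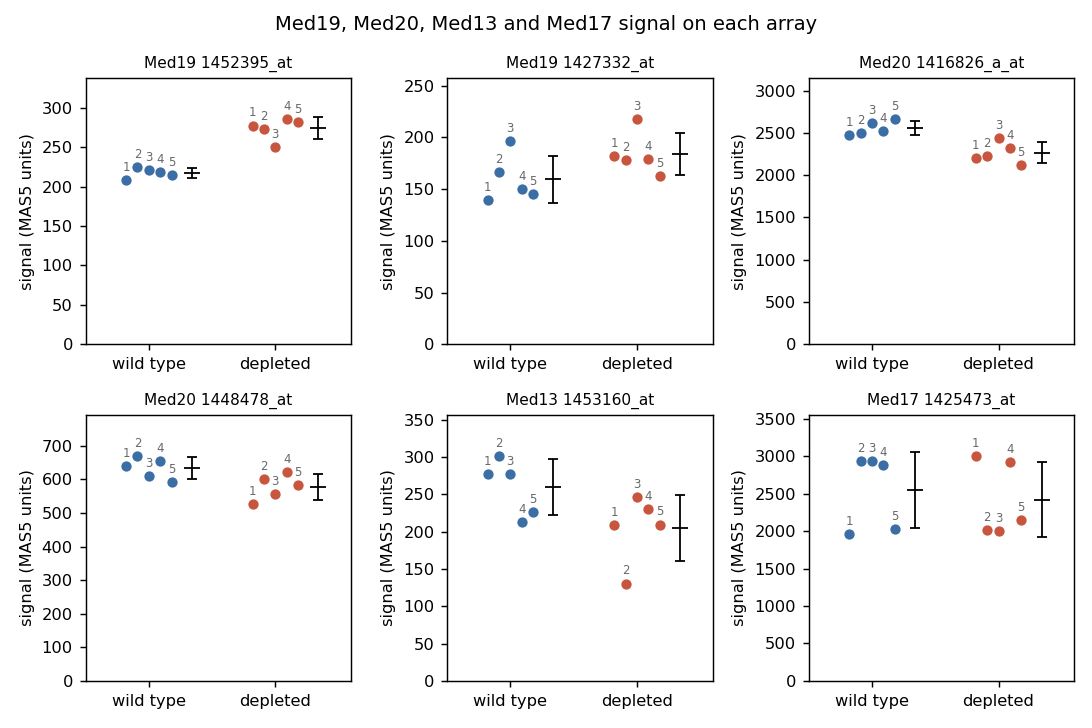
Signal (linear MAS5 units, axis from 0) of both Med19 and both Med20 probe sets and of the brightest Med13 and Med17 probe sets on each array, numbered by replicate, with the mean and SD of each group of 5. Groups separate on the brighter Med19 and Med20 probe sets, and Med17 falls into a high and a low cluster in both groups.

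Med14, the backbone on which head, middle and tail assemble, gave different directions on its 5 probe sets, all of which passed the filter on low signals. The brightest (1456785_at) read 445, 476, 455, 417 and 448 on wild-type arrays 1 to 5 and 371, 389, 391, 396 and 408 on depleted arrays 1 to 5. The groups did not overlap, and the depleted arrays were lower. The fall was 1.14-fold, or -0.20 ± 0.058 on the log2 scale (SE), with a limma adjusted p of 0.0362 and an exact permutation p of 0.00794.

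A dimmer Med14 probe set (1457167_at) moved the other way and further. It read 80.2, 74.7, 71.0, 75.2 and 80.9 on wild-type arrays 1 to 5 and 152, 116, 124, 127 and 114 on depleted arrays 1 to 5. All depleted arrays lay well above all wild-type arrays, with depleted replicate 1 the highest. The rise was 1.63-fold, or 0.71 ± 0.097 on the log2 scale (SE), with a limma adjusted p of 9.33e-05 and an exact permutation p of 0.00794. It was the largest change of a Mediator probe set that passed, and it held in all 23 alternative fits run for it, from 0.62 to 0.79.

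The remaining Med14 probe sets were dimmer still and also gave positive values. Probe set 1450229_at read 40, 33.3, 32.0, 28.5 and 31.3 on wild-type and 46.4, 50.4, 44.9, 40.8 and 42.7 on depleted arrays, so the groups only just failed to meet. Its log2 fold change of 0.43 ± 0.13 (SE) passed (limma adjusted p = 0.0328). Probe set 1443597_at read 61.9, 64.0, 73.8, 68.9 and 65.9 against 79.1, 78.1, 65.8, 75.9 and 92.7, where depleted replicate 3 fell among the wild-type arrays. Its log2 fold change of 0.22 ± 0.11 did not pass (limma adjusted p = 0.216). Probe set 1437632_at lay close to the control level, which 3 wild-type and 4 depleted arrays exceeded. It read 4.82, 7.78, 10.5, 8.25 and 9.05 against 28.6, 5.99, 11.7, 10.3 and 5.40, with depleted replicate 1 far above the rest, and its log2 fold change of 0.33 ± 0.33 did not pass.

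**Figure D3:**
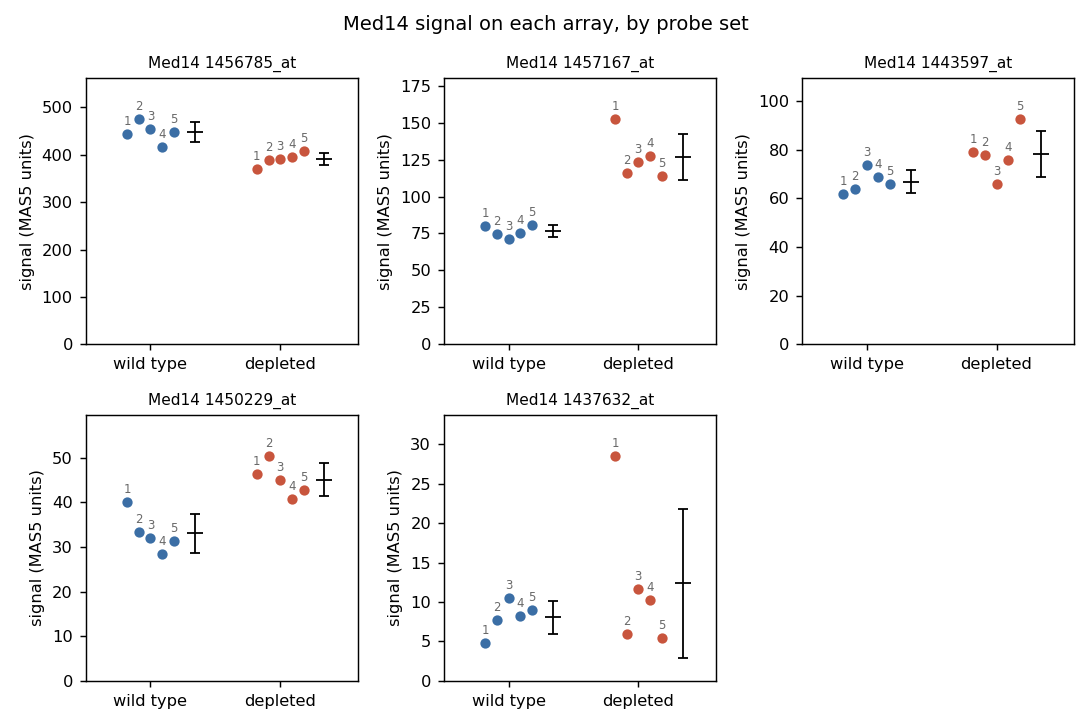
Signal (linear MAS5 units, axis from 0) of the 5 Med14 probe sets on each array, numbered by replicate, with the mean and SD of each group of 5. The brightest probe set is lower in depleted oocytes and the probe sets with means of 76.4 and 33.0 in wild type are higher, without overlap.

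The disagreement was larger than the spread between arrays. The brightest probe set minus the mean of the other 4, taken within each array on the log2 scale, was 3.58 ± 0.080 (SD, n = 5) in wild-type and 2.97 ± 0.27 in depleted oocytes. The difference of these differences was -0.61, all depleted arrays lay under all wild-type arrays, and the two-sided exact permutation p was 0.00794. The mean includes 1437632_at, which lies close to the control level and on which depleted replicate 1 stands out. The difference was -0.50 without that array and -0.64 without that probe set, an alternative chosen after seeing the data, with an exact permutation p of 0.00794 in both. Set against single probe sets, the difference was -0.90 for 1457167_at, -0.62 for 1450229_at and -0.41 for 1443597_at, each with an exact permutation p adjusted over the 4 pairs of 0.0106. For 1437632_at it was -0.52 with an adjusted p of 0.246. Without overlap, 1456785_at was lower and 1457167_at and 1450229_at were higher on the depleted arrays. The p-values of those pairs were therefore fixed by that separation and add no further support. The mean of the other 4 holds both of those higher probe sets. Its p-value thus rests on the same values and is no separate support, and the comparison was chosen with earlier results of these data known. Which stretch of the Med14 transcript each probe set reads, and on which strand, was not analysed here, and no single direction can be given for the gene.

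The 2 weaker Med14 calls lay near the threshold. With single arrays left out, the log2 fold change stayed between -0.22 and -0.17 for the brightest probe set and between 0.38 and 0.49 for 1450229_at, while the adjusted p often passed 0.05. The call of the brightest probe set was lost without wild-type replicate 1, 2, 3 or 5 and without depleted replicate 1, 3 or 4 (adjusted p up to 0.0992), with arrays centred on their medians (log2 fold change -0.14, adjusted p = 0.177) and with the 3-prime over 5-prime covariate (adjusted p = 0.0505). The call of 1450229_at was lost without wild-type replicate 2, 3, 4 or 5 and without depleted replicate 1, 2 or 3 (adjusted p up to 0.0825). It was also lost with that covariate (adjusted p = 0.0943), with no filter on low signals (0.0625) and without depleted replicates 2 and 5 together (0.105).

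**Figure D4:**
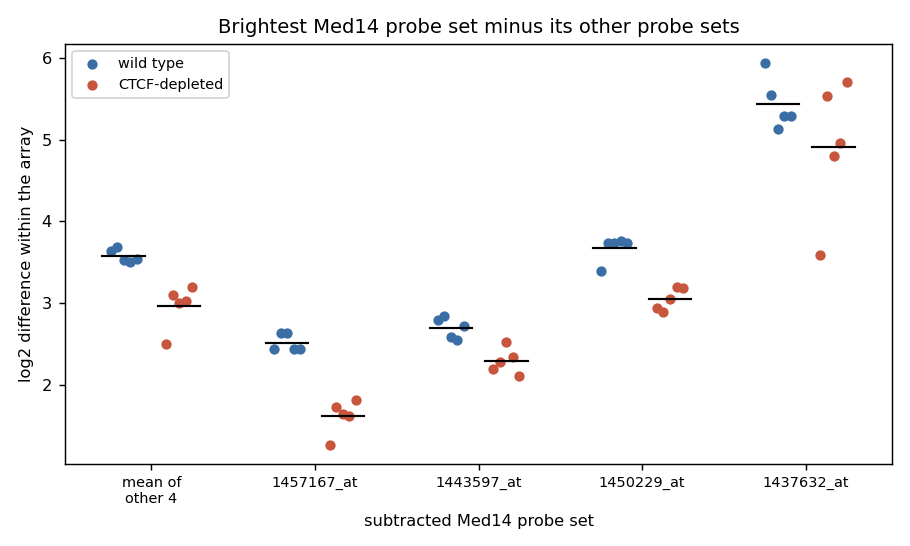
Within-array log2 difference between the brightest Med14 probe set and the mean of its other 4 probe sets (left) or each of them, for the 5 wild-type and 5 CTCF-depleted arrays, with bars at the group means. The depleted arrays lie under the wild-type arrays in every comparison except that with 1437632_at.

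The tail module, where many activators dock, held 5 genes and 0 of them passed in either direction. Their median log2 fold change was 0.013. Med15, which binds SREBP and SMAD proteins, read 971 ± 58.8 (SD, n = 5) in wild-type and 979 ± 39.7 in depleted oocytes. Med23, a target of ETS and viral activators, read 824 ± 28.7 and 773 ± 47.5, a log2 fold change of -0.094. Med24 had -0.097, Med25 0.065 and Med16 0.12. Of the 4 subunits whose placing between head and tail differs among sources, 0 passed. Med28, with signals of 6018 ± 99.5 in wild-type and 5955 ± 276 in depleted oocytes, had the narrowest 95% interval of the 32 genes, 0.079 to either side of a log2 fold change of -0.016. Med30 had -0.052 and Med29 0.10. Med27 had the widest interval, 0.34 to either side of 0.12, and depleted replicate 2 read 572 there while the other depleted arrays ran from 255 to 331.

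The kinase module held 6 genes and 0 of them passed in either direction, with a median log2 fold change of -0.00047. Cdk8, its kinase, read 1219 ± 65.6 (SD, n = 5) in wild-type and 1188 ± 57.1 in depleted oocytes. Cyclin C (Ccnc), its activating partner, read 159 ± 14.2 and 168 ± 14.01. Med12, which activates the kinase, read 251 ± 19.6 and 241 ± 13.95, and its paralogue Med12l 144 ± 18.6 and 149 ± 16. The 95% intervals of these 4 genes reached at most 0.27 on the log2 scale in either direction.

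Med13, which tethers the kinase module to the rest of Mediator, had the most negative value of the 32 genes, but it did not pass. Its brightest probe set read 278, 302, 278, 213 and 227 on wild-type arrays 1 to 5 and 209, 131, 246, 230 and 210 on depleted arrays 1 to 5. The groups overlapped, since wild-type replicates 4 and 5 lay among the depleted arrays, and depleted replicate 2 was far below the rest. The log2 fold change was -0.36 ± 0.14 (SE) with a limma adjusted p of 0.121 and an exact permutation p of 0.0635, and it stayed short of the threshold in all 23 alternative fits run for it. Without depleted replicate 2 it was -0.20, less negative than the -0.30 of Med11 in that fit. Of its other 3 tested probe sets 2 also gave negative values, -0.34 (adjusted p = 0.113) and -0.26, and 1 gave 0.063. On the probe set with -0.34, depleted replicate 2 was again far below the other depleted arrays, at 33.95 against 44.48 to 48.52. Its paralogue Med13l read 740 ± 25.6 and 761 ± 66.6, a log2 fold change of 0.036.

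Counted as probe sets, 56 of the 70 passed the filter on low signals, set on the mean log2 value and equal to a signal of about 5.13. Of these, 5 were called, 3 higher (2 of Med14 and 1 of Med19) and 2 lower (Med14 and Med20), or 8.93%, against 12.6% of all 27022 tested probe sets (5.48% higher and 7.12% lower). An unadjusted p under 0.05 was reached by 8 of the 56. The share over all tested probe sets at that threshold is not given here, so that count is not read as a result. The same 5 probe sets were those whose groups did not overlap, 8.93% against 11.1% of all tested probe sets. The 14 probe sets left out belonged to 10 genes, each of which had another probe set that was tested, and the highest signal of any of them on any array was 14.3. Of the 15 genes with more than 1 tested probe set, 9 had values of both signs: Ccnc, Med1, Med8, Med12l, Med13, Med14, Med25, Med26 and Med28. Only for Med14 among them did any probe set pass.

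Genes that work beside Mediator were examined as lists. Of 13 partners and regulators outside the rule 12 were tested on their brightest probe sets, of which 0 were called higher and 3 lower, against 7.26% higher and 9.12% lower over all genes tested, with a median log2 fold change of -0.046 against -0.017. Ccnt1, the cyclin of the elongation kinase P-TEFb, fell from 170 ± 12.3 (SD, n = 5) to 124 ± 9.74, a log2 fold change of -0.45 (limma adjusted p = 0.00173), with -0.044 on its other probe set. Smc1a, a cohesin subunit, fell by 0.23 and Nipbl, the cohesin loader that has been purified with Mediator, by 0.22 on the log2 scale (limma adjusted p = 0.0237 and 0.0374), and none of the 3 passed when the probe sets of each gene were averaged. Cdk19, the paralogue of Cdk8, was dim at 15.9 in wild-type and 11.2 in depleted oocytes and did not pass (log2 fold change -0.45, adjusted p = 0.193). Of 30 listed genes of RNA polymerase II and its general factors 27 were tested, and 0 were called higher and 1 lower, against the same shares over all genes. The called gene was Ccnh, the cyclin of the TFIIH kinase, which fell from 879 ± 62.2 to 731 ± 41.3, and its other 2 tested probe sets gave -0.45 and -0.26. The median log2 fold change of that list was -0.00058.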

How the data were processed

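Signals of 10 arrays were used, 5 of wild-type and 5 of CTCF-depleted oocytes, grouped by the sample titles. Picopure kits gave the RNA and a small-sample assay the biotin label, per the labels' protocols. The authors deposited linear signal intensity, 1 value for each probe set on each array. The submitters' processing notes name MAS5. The sources used here do not give its version or settings. Their mean without the lowest and highest 2% was 150.001 on every array, so arrays had been scaled to a common mean. MAS5 corrects by mismatch probes, so that dim signals vary strongly.

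Genes were named from the platform annotation, under which 1 further probe set names a member together with another gene and was not used. The 64 control probe sets were left out, signals were transformed as log2(signal + 2.47), an offset at the 25th percentile that makes fold changes of dim genes too small, and probe sets whose mean log2 value lay under the 40th percentile of such means were dropped. The 27022 left were fitted with limma 3.58.1 (eBayes with trend; R 4.3.3) and Benjamini-Hochberg adjustment over all of them. The probe set of highest mean stood for its gene. Beyond that choice, levels of different probe sets were set against each other only within Med14. Exact permutation tests, two-sided, served for single values.

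The Mediator rule uses symbols only, but it, the Med14 comparison and the lists were chosen with earlier results of these data known. Named were all called Mediator probe sets, all Med14 and Ctcf probe sets on every array, every other member by its value or within a range, and up to 6 called genes of each list. Array values of Med13 and Med17 and further genes were added after their values were seen. Deviations of same-numbered arrays correlated between 0.0024 and 0.051, so no strong shared deviation was seen. Correlations this weak cannot settle whether the numbers pair the samples. Alternatives were other offsets, filters, scalings, variance models, array weights, thresholds, a replicate block, a covariate, the mean over probe sets, left-out arrays and, added after seeing the data, the Med14 comparison without 1437632_at.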

Additional observations from a re-analysis of the deposited data

Results flagged for a closer look

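Among 112 groups of 5 arrays, 2 for each tested Mediator probe set, 4 held an array far from the other 4 by Dixon's criterion, which chance meets in about 1 of 20 groups. Med12 read 285.5 on wild-type replicate 1 against 238.7 to 246.2 on the other wild-type arrays. The second Med13 probe set (1438725_at) read 33.95 on depleted replicate 2 against 44.48 to 48.52. The dimmest Med14 probe set (1437632_at) read 28.56 on depleted replicate 1 against 5.40 to 11.69. Med27 read 572.2 on depleted replicate 2 against 254.7 to 330.7. None of these 4 probe sets was called.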

How the results depend on the processing

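The rise of Med19, the rise of Med14 on 1457167_at, the Med14 disagreement (-0.74 to -0.50, exact permutation p up to 0.0179) and the fall of Ctcf kept their direction and call in every alternative run for them. Med14 as a gene turned from -0.20 to 0.30 with the mean over its probe sets (adjusted p = 0.0467), which raised the Mediator genes called higher from 1 to 2 and reduced those called lower from 2 to 1. Genes called lower numbered 0 under median centring, without the variance trend and at an adjusted p under 0.01, and 1 under the replicate block (Med20) and the 3-prime to 5-prime covariate, where Med14 and Med20 lost their calls on these probe sets and Med11 gained one. Probe sets called lower, 2 here, numbered 0 under median centring, without the variance trend and at an adjusted p under 0.01, and 1 under the replicate block. The replicate block changed no other Mediator call than that of 1456785_at (adjusted p = 0.0559), and whether the shared numbers pair the arrays is not known. With single arrays left out, Mediator genes called lower ran from 1 to 3 and called higher stayed at 1, and probe sets called lower ran from 1 to 3 and higher from 2 to 3. Med20 also lost its call without depleted replicates 2 and 5 together (adjusted p = 0.0857) and without the variance trend (0.0995). At an adjusted p under 0.01, 1821 of all probe sets were called against 3406. Partner genes called lower ran from 0 to 3 and called higher from 0 to 1, and polymerase genes called lower from 1 to 2. Median centring raised log2 fold changes by 0.051. Signals near the control level, such as 1437632_at, limit what can be seen.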
